A study of Mus musculus with 24 samples.

Results

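Gjb2, Kcnk10 and Slc4a4, 3 of the 21671 genes in the RPKM table, encode a gap junction protein, a potassium channel and a bicarbonate carrier. They were picked by name, for lower RPKM (read number per length of gene and depth of library) at 8 h than at 4 h in empty vector cells and for their levels in MycER HEA cells. What these libraries show of them in EV and HEA is therefore given as a description with no test. Tests are given where only WT and RA libraries are compared, since the rule of choice did not name those. The spread in these tests was still estimated over all 8 groups, EV and HEA included. The genes and tests were also chosen with earlier results of these data known.

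All cells were 3T9, an immortalised mouse fibroblast line, infected with a vector and kept in OHT (4-hydroxytamoxifen) for 8 h or 4 h. The vector carried MycER WT, MycER HEA or MycER RA, or was empty (EV), and each of the 8 groups of vector and time held 3 libraries. In MycER, the transcription factor Myc is fused to the part of the oestrogen receptor that binds hormone, so that OHT switches it on, and EV cells had the same OHT without a MycER protein. HEA and RA are mutant Myc proteins, which in the published account of this study lack contacts with the bases of the DNA site (HEA) or with the DNA backbone (RA), and the series asks how non-specific and sequence-specific DNA binding by Myc are required for gene regulation. No library without OHT was used here, so differences between vectors include any that the infected populations had before OHT. The labels do not say that the libraries of a group were grown as cultures of their own; the p-values here therefore speak only of library-to-library spread, which may be technical.

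Gjb2 encodes connexin 26, whose hexamers dock between neighbouring cells into channels that pass ions and small metabolites. It is known for its place in the inner ear and in epithelia such as the epidermis. Kcnk10 encodes TREK-2, a background potassium channel of the K2P family (channels with a pair of pore domains per subunit) that opens on stretch, heat and fatty acids and holds the membrane potential negative. Slc4a4 encodes NBCe1, which carries sodium together with bicarbonate across the plasma membrane and so sets the pH of the cell, best known from kidney, pancreas and astrocytes.

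Myc with its partner Max binds E-boxes, whose best-bound form is CACGTG. The promoters of the 3 genes are shown because the study turns on that sequence. They come from RefSeq on build GRCm38.p6 and run from 250 bases before to 50 bases after a start site, written 5′ to 3′ on the gene's strand. The RPKM table was made on another build and holds no coordinates, and it does not say which start site of Kcnk10 or Slc4a4 was used. Capitals mark CANNTG, the general E-box, which reads the same on both strands and includes CACGTG.
Gjb2, chr14:57104653-57104952, minus strand: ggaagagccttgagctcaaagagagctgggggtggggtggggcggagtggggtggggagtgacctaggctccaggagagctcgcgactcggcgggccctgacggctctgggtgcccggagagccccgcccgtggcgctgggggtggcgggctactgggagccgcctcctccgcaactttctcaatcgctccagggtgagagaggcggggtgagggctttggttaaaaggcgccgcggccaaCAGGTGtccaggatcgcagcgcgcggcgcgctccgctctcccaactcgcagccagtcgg
Kcnk10, chr12:98578164-98578463, minus strand: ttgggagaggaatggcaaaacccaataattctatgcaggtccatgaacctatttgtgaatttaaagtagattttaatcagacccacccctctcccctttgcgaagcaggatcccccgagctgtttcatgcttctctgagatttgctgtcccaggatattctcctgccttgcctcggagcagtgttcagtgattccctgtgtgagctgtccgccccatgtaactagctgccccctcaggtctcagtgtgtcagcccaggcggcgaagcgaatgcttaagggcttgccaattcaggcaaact
Kcnk10, chr12:98575078-98575377, minus strand: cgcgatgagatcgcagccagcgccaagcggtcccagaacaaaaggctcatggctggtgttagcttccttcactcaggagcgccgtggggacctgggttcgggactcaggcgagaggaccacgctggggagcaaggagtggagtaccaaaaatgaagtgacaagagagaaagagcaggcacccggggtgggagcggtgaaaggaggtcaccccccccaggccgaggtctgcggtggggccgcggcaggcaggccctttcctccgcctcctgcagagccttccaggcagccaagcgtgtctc
Slc4a4, chr5:88887010-88887309, plus strand: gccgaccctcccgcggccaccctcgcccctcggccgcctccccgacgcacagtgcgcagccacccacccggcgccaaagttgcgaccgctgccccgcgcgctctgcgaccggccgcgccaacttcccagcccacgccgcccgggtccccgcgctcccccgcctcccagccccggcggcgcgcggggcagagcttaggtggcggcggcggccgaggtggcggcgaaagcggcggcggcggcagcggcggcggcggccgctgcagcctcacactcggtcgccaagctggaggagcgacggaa
Slc4a4, chr5:89027716-89028015, plus strand: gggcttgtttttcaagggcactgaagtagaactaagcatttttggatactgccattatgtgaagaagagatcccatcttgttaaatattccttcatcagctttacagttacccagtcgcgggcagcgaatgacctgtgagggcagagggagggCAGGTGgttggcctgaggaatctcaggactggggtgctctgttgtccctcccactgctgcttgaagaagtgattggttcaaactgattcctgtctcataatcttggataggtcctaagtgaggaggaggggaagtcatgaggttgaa
CACGTG was in 0 of these 5 windows, against 7.15% of the 32851 promoters in the RefSeq table. CANNTG was in 2 of them, as CAGGTG in the Gjb2 window and in the second Slc4a4 window, against 72.3% of all promoters. The share of G and C was 70.0% in the Gjb2 window, 51.0% and 64.3% in the Kcnk10 windows and 80.0% and 48.3% in the Slc4a4 windows, where the median promoter had 52.7%. These are letters in 300-base windows and show no binding.

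Depth was 9.81 to 12.8 M reads per library, recovered from the steps of the low RPKM values. Esr1, part of which is in the construct, averaged 10.2 to 11.9 RPKM in the 6 MycER groups and 0.189 and 0.277 RPKM in EV at 8 h and 4 h. The libraries farthest from the others of their group were WT at 4 h replicate 3, WT at 8 h replicate 3 and EV at 4 h replicate 2, with a median absolute distance of 0.220, 0.197 and 0.184 on the log2 scale, against 0.0671 to 0.174 in the other 21. Of 10 fibroblast markers, 8 passed the filter of 1 RPKM in 3 libraries, Col1a1 and Pdgfrb among them, while Thy1 and Lum stayed under 0.5 RPKM in every library. The 9 epithelial markers, of interest for Gjb2, summed to 0.109 to 0.653 RPKM. Of the 6 astrocyte markers, of interest for Slc4a4, Gfap, Aqp4, Slc1a2 and Aldh1l1 stayed under 0.5 RPKM, and the list, carried by Slc1a3 and S100b, summed on average to 22.8 and 24.8 RPKM in HEA at 8 h and 4 h against 33.3 and 32.1 RPKM in EV. In WT it summed to 49.1 and 45.1 RPKM and in RA to 45.1 and 40.9 RPKM at the same times. Its part in the Slc4a4 levels below was not tested. In these bulk samples, fewer expressing cells and less RNA per cell cannot be told apart.

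Gjb2 had the widest range of the 3 genes. It was highest in HEA at 4 h, lowest in WT at 8 h, and lower at 8 h than at 4 h with every vector. In WT it had 6.11, 9.55 and 7.63 RPKM at 8 h, against 26.1, 28.2 and 20.9 RPKM at 4 h. In HEA it had 28.2, 28.8 and 28.2 RPKM at 8 h, against 49.5, 49.8 and 50.7 RPKM at 4 h. In RA it had 20.6, 21.2 and 30.3 RPKM at 8 h, against 34.2, 37.5 and 46.0 RPKM at 4 h. The HEA libraries lay close together at each time, while in RA replicate 3 stood above the other 2 libraries at both times. The HEA libraries held 684 to 755 reads at 8 h and 1278 to 1339 at 4 h. Sampling noise exceeds their spread there, so nothing is read from the closeness. In EV it had 12.2, 15.5 and 12.6 RPKM at 8 h, against 31.5, 31.5 and 26.4 RPKM at 4 h. The ranges of 8 h and 4 h did not overlap with any vector, and the mean at 8 h was 31.0% of that at 4 h in WT, 56.8% in HEA, 61.3% in RA and 45.1% in EV. In order, the group means ran 49.96 (HEA, 4 h), 39.2 (RA, 4 h), 29.8 (EV, 4 h), 28.4 (HEA, 8 h), 25.1 (WT, 4 h), 24.04 (RA, 8 h), 13.4 (EV, 8 h) and 7.76 RPKM (WT, 8 h). Neighbours from EV at 4 h down to RA at 8 h overlapped, and the others did not. How many of all genes had ranges without overlap was not counted, here or below, so overlap is a description only. These levels rested on 164 to 1339 reads per library over a gene length of 2404 bases.

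Kcnk10 separated the vectors more than the times. In HEA it had 21.6, 22.4 and 20.5 RPKM at 8 h, against 21.4, 21.95 and 21.4 RPKM at 4 h, so the times overlapped and the mean at 8 h was 99.7% of that at 4 h. In WT it had 10.6, 11.2 and 10.0 RPKM at 8 h, against 13.6, 12.9 and 12.3 RPKM at 4 h, with no overlap. WT thus lay below every HEA library and above every RA and EV library at both times. In RA it had 7.92, 7.16 and 6.89 RPKM at 8 h, against 9.07, 7.49 and 7.87 RPKM at 4 h, and these overlapped. In EV it had 5.63, 5.60 and 5.62 RPKM at 8 h, against 8.07, 8.05 and 7.55 RPKM at 4 h. The EV libraries at 8 h were the lowest of all 24 and nearly identical, with an SD of 0.020 RPKM. They held 229 to 255 reads each, where sampling noise exceeds that SD, so nothing is read from the closeness. The mean at 8 h was 82.0% of that at 4 h in WT, 90.0% in RA and 71.2% in EV. In order of group means, both HEA groups overlapped at the top (21.6 at 4 h and 21.5 RPKM at 8 h), WT followed at 4 h (12.9) and 8 h (10.6), then RA at 4 h (8.14), EV at 4 h (7.89) and RA at 8 h (7.33), which overlapped as neighbours, and EV at 8 h (5.62) stood apart. These levels rested on 229 to 895 reads per library over 3655 bases. GENCODE M21 lists an antisense gene over Kcnk10, Gm40893, and another on the same strand, 5330409N07Rik, whose reads strand cannot separate from those of Kcnk10, and the sources used here do not give the strand setting of the counting.

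Slc4a4 was lower at 8 h than at 4 h with every vector, and higher in HEA than in any other vector at the same time. In HEA it had 30.7, 26.5 and 23.6 RPKM at 8 h, against 34.5, 37.4 and 32.0 RPKM at 4 h. In RA it had 15.6, 16.8 and 15.7 RPKM at 8 h, against 26.7, 23.5 and 24.2 RPKM at 4 h. WT and EV lay together below both. In WT it had 10.7, 12.96 and 11.6 RPKM at 8 h, against 18.0, 19.4 and 16.7 RPKM at 4 h. In EV it had 10.9, 14.1 and 11.0 RPKM at 8 h, against 17.9, 18.2 and 18.6 RPKM at 4 h. The ranges of 8 h and 4 h did not overlap with any vector, and the mean at 8 h was 65.4% of that at 4 h in WT, 77.8% in HEA, 64.5% in RA and 65.8% in EV. In order, the group means ran 34.6 (HEA, 4 h), 26.9 (HEA, 8 h), 24.8 (RA, 4 h), 18.2 (EV, 4 h), 18.0 (WT, 4 h), 16 (RA, 8 h), 12 (EV, 8 h) and 11.8 RPKM (WT, 8 h). Overlaps lay between HEA at 8 h and RA at 4 h, along EV at 4 h, WT at 4 h and RA at 8 h, and between EV and WT at 8 h. These levels rested on 899 to 3057 reads per library over 7651 bases.

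**Figure D1:**
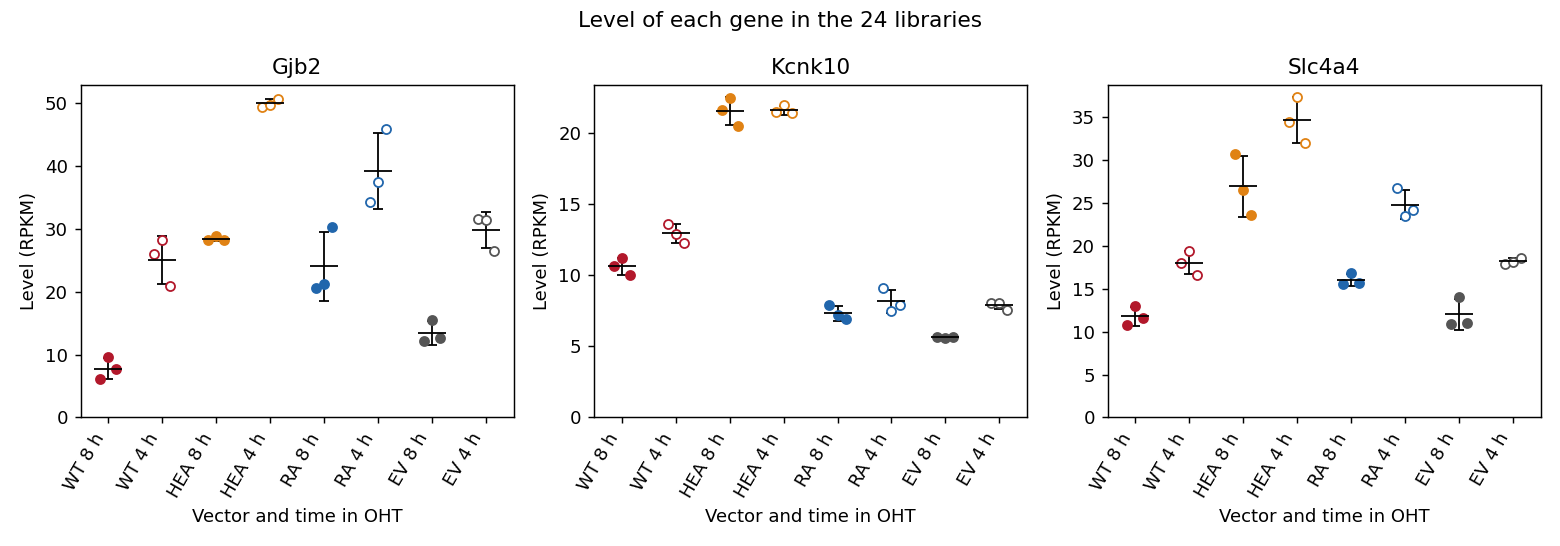
RPKM of Gjb2, Kcnk10 and Slc4a4 (vertical axes, from 0) in the 8 groups of vector and time in OHT, with a point per library (filled at 8 h, open at 4 h) and a black bar for the mean ± SD of 3 libraries. Gjb2 and Slc4a4 lie lower at 8 h than at 4 h with every vector, while Kcnk10 stays between 20.5 and 22.4 RPKM in all 6 HEA libraries.

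RPKM is scaled by gene length, so the 3 genes can be set against each other within a library. In WT at 8 h Gjb2 was the lowest of them in 3 of 3 libraries, and in WT at 4 h the highest in 3 of 3. In EV it was the highest in 3 of 3 libraries at 8 h and in 3 of 3 at 4 h.

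The comparison of 8 h with 4 h in WT and in RA cells asks whether the time course seen in EV also held there. The rule of choice did not name the WT and RA libraries. In WT cells all 3 genes fell. Gjb2 averaged 7.76 ± 1.7 RPKM at 8 h and 25.1 ± 3.8 RPKM at 4 h (SD, n = 3 each), a log2 fold change of -1.64 ± 0.15 (SE, limma adjusted p = 6.05e-06). Slc4a4 averaged 11.8 ± 1.1 RPKM at 8 h and 18.0 ± 1.4 RPKM at 4 h, a log2 fold change of -0.59 ± 0.10 (limma adjusted p = 0.0021). Kcnk10 averaged 10.6 ± 0.59 RPKM at 8 h and 12.9 ± 0.67 RPKM at 4 h, a log2 fold change of -0.27 ± 0.079 (limma adjusted p = 0.0349). These folds are on the scale of log2(RPKM + 0.5), with p adjusted over 12268 genes, of which 8.46% passed in this comparison. The spread was estimated over all 8 groups. With only the 2 groups compared the adjusted p was 0.113 for Gjb2, 0.133 for Slc4a4 and 0.261 for Kcnk10.

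The call of Kcnk10 in WT rested on single libraries. It was lost without WT at 4 h replicate 1 (adjusted p = 0.0905), replicate 2 (0.069) or replicate 3 (0.0504), without WT at 8 h replicate 1 (0.0912) or replicate 3 (0.117), and without the 3 farthest libraries (0.081). Without those 3 libraries Gjb2 and Slc4a4 stayed past the threshold in WT.

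In RA cells Slc4a4 fell and the other 2 genes did not pass the test. Slc4a4 averaged 16 ± 0.68 RPKM at 8 h and 24.8 ± 1.7 RPKM at 4 h, a log2 fold change of -0.61 ± 0.10 (limma adjusted p = 0.0192), where 0.22% of the 12268 genes passed. Its call was lost with only the 2 groups compared (0.0685) and without any RA library but replicate 3 at 4 h, with adjusted p of 0.0769 to 0.104. Gjb2 averaged 24.04 ± 5.5 RPKM at 8 h and 39.2 ± 6.1 RPKM at 4 h, a log2 fold change of -0.71 ± 0.15 that missed the threshold (limma adjusted p = 0.0649) though all 3 libraries at 8 h lay below all 3 at 4 h. It passed with quantile normalisation (0.0335), with voom on the recovered reads (0.0217) and without the 3 farthest libraries (0.042). Kcnk10 averaged 7.33 ± 0.53 RPKM at 8 h and 8.14 ± 0.82 RPKM at 4 h, a log2 fold change of -0.14 with a 95% interval of -0.30 to 0.02 (limma adjusted p = 0.588).

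Whether the time change differed between WT and RA was tested as a difference of the 2 log2 fold changes. For Gjb2 it was -0.93 ± 0.22 (95% interval -1.39 to -0.48), a larger fall in WT, with an unadjusted p of 0.000364 and a limma adjusted p of 0.191 over all genes, so it did not pass. For Kcnk10 it was -0.13 with a 95% interval of -0.37 to 0.10 (limma adjusted p = 0.911). For Slc4a4 it was 0.02 with a 95% interval of -0.28 to 0.32 (limma adjusted p = 0.993), and its sign turned when a single library was left out, to -0.032 for replicate 3 of WT at 4 h, -0.032 for replicate 1 of RA at 4 h and -0.047 for replicate 2 of WT at 8 h. Of all 12268 genes 0.0652% passed this test.

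In HEA and EV the same change is a description, since it chose the genes. In HEA the log2 fold changes of 8 h over 4 h were -0.80 for Gjb2, -0.01 for Kcnk10 and -0.36 for Slc4a4, where 3.33% of all genes passed. In EV they were -1.12 for Gjb2, -0.46 for Kcnk10 and -0.59 for Slc4a4. In EV 0.0245% of the 12268 genes passed. The genes were chosen on that change, so nothing is read from it.

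**Figure D2:**
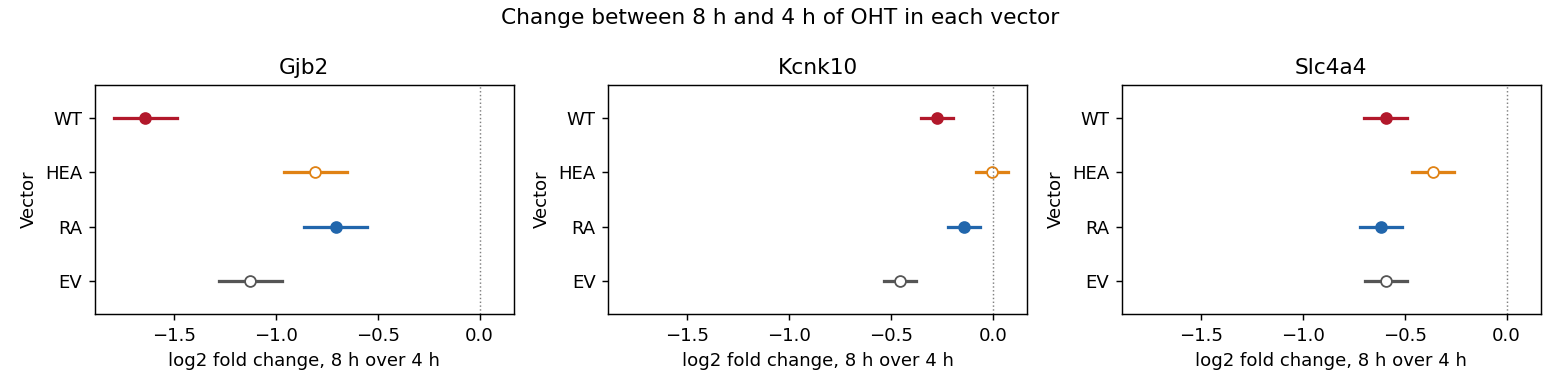
Log2 fold change of 8 h over 4 h of OHT on the scale of log2(RPKM + 0.5) (horizontal axis) in each vector (vertical axis), with bars for ± SE from the fit over all 24 libraries. Filled points (WT, RA) were tested and open points (HEA, EV) are descriptions, and Kcnk10 in HEA lies closest to 0, at -0.01, while Gjb2 in WT lies lowest, at -1.64.

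WT was compared with RA at each time, as a pair of MycER forms that the rule of choice did not name. All 3 genes differed at both times, Kcnk10 higher and Gjb2 and Slc4a4 lower in WT. At 8 h Gjb2 averaged 7.76 ± 1.7 RPKM in WT and 24.04 ± 5.5 RPKM in RA, a log2 fold change of -1.57 ± 0.15 (limma adjusted p = 1.4e-07). Kcnk10 averaged 10.6 ± 0.59 RPKM in WT and 7.33 ± 0.53 RPKM in RA, a log2 fold change of 0.51 ± 0.079 (limma adjusted p = 3.26e-05). Slc4a4 averaged 11.8 ± 1.1 RPKM in WT and 16 ± 0.68 RPKM in RA, a log2 fold change of -0.43 ± 0.10 (limma adjusted p = 0.00219). In no case did the libraries of WT and RA overlap, though the share of all genes without overlap was not counted. As background, 41.8% of the 12268 genes passed at 8 h, so a call between these vectors is common.

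At 4 h the directions were the same. Gjb2 averaged 25.1 ± 3.8 RPKM in WT and 39.2 ± 6.1 RPKM in RA, a log2 fold change of -0.64 ± 0.15 (limma adjusted p = 0.00318). For Kcnk10 the averages were 12.9 ± 0.67 RPKM in WT and 8.14 ± 0.82 RPKM in RA, a log2 fold change of 0.64 ± 0.079 (limma adjusted p = 3.87e-06). For Slc4a4 they were 18.0 ± 1.4 RPKM in WT and 24.8 ± 1.7 RPKM in RA, a log2 fold change of -0.45 ± 0.10 (limma adjusted p = 0.002). Here 34.8% of all genes passed. The 6 differences between WT and RA kept their direction and stayed past the threshold under every alternative run, leaving out each library in turn included, with adjusted p at most 0.0257 over the alternatives.

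Set against EV, the means of the MycER forms ran HEA, RA, WT from high to low for Gjb2 and Slc4a4 at both times. For Kcnk10 they ran HEA, WT, RA at both times. HEA and RA overlapped for Gjb2 at 8 h, with HEA at 1.18 times RA. The values are descriptions, since EV and HEA libraries chose the genes, and all forms at a time share the same 3 EV libraries. Gjb2 in WT was 0.578 times its EV mean at 8 h and 0.840 times at 4 h, where WT and EV overlapped. In HEA it was 2.11 times EV at 8 h and 1.68 times at 4 h, and in RA 1.79 times at 8 h and 1.32 times at 4 h, with no overlap. WT thus lay below EV and both mutants above it. Kcnk10 was above EV in HEA (3.83 times at 8 h and 2.73 times at 4 h) and in WT (1.89 and 1.64 times). In RA it was 1.30 times EV at 8 h with no overlap, and 1.03 times at 4 h, where RA and EV overlapped. Slc4a4 in WT was 0.982 times EV at 8 h and 0.988 times at 4 h, overlapping it at both times, while HEA was at 2.25 and 1.90 times and RA at 1.33 and 1.36 times. HEA over WT was 3.66 times for Gjb2, 2.03 times for Kcnk10 and 2.29 times for Slc4a4 at 8 h.

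The authors' deposited table of comparisons with EV gives log2 fold changes close to those fitted here. At 8 h it lists -0.70 for Gjb2, 0.90 for Kcnk10 and -0.003 for Slc4a4 in WT, where the values fitted here were -0.77, 0.86 and -0.02. The authors' deposited table lists 1.09, 1.93 and 1.18 for the same genes in HEA and 0.66, 0.31 and 0.36 in RA, with 1.06, 1.85 and 1.14 and with 0.80, 0.35 and 0.41 in the fit here.

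**Figure D3:**
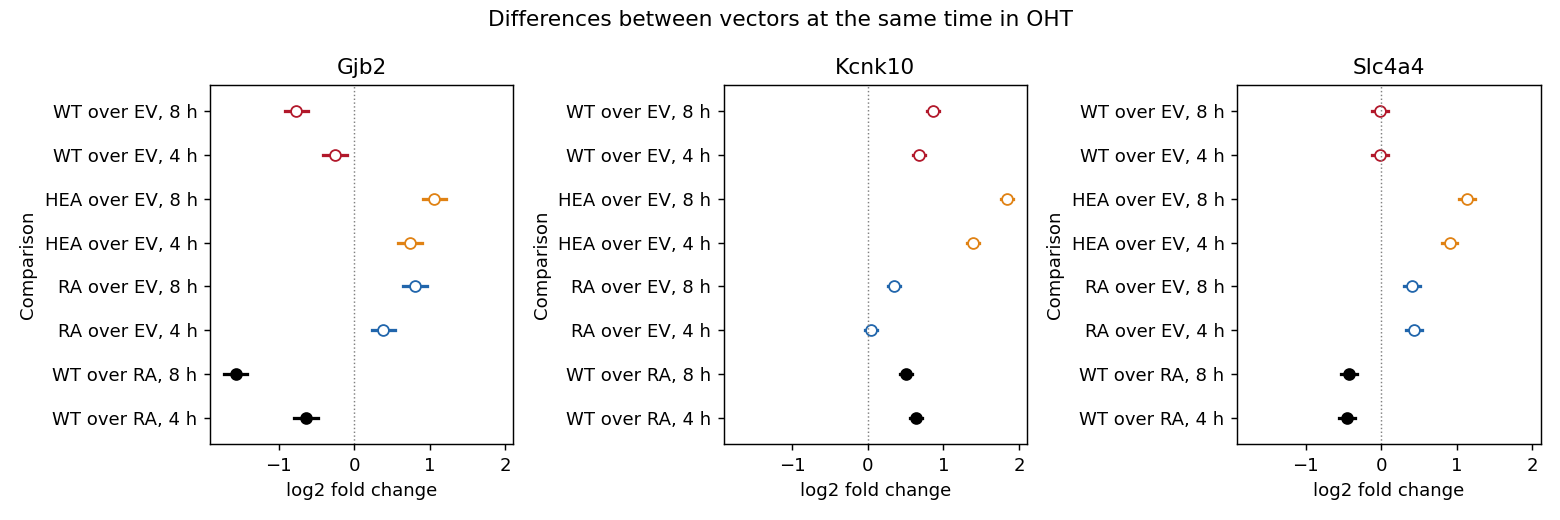
Log2 fold change between vectors at the same time in OHT (horizontal axis, log2(RPKM + 0.5) scale) for each comparison (vertical axis), with bars for ± SE from the fit over all 24 libraries. Open points share libraries with the choice of the genes, and filled points (WT over RA) were tested. Gjb2 lies left of 0 in WT and right of 0 in HEA and RA over EV.

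Of 20 other connexin and pannexin genes described here, 5 passed the filter. Against EV at 8 h 0 rose and 4 fell in HEA (47.7% of all genes passed), and 0 rose and 2 fell in WT (35.2%), a share of the 5 genes near that of all genes in WT. Connexin 43, the main connexin of fibroblasts encoded by Gja1, averaged 35.1 ± 2.7 RPKM in HEA at 8 h and 66.4 ± 1.0 RPKM in EV, a log2 fold change of -0.91 ± 0.17 (limma adjusted p = 0.000179). Gja4, Gjc1 and Panx1 also fell in HEA at 8 h. In WT at 8 h Gja4 averaged 2.13 ± 0.28 RPKM against 6.97 ± 0.60 RPKM in EV (-1.51 ± 0.14, limma adjusted p = 1.45e-07), and Gjb5 fell too. At 4 h, 0 rose and 4 fell in HEA (43.2% of all genes passed) and 0 rose and 3 fell in WT (26.1%). The call of Gjc1 in HEA at 4 h was lost with quantile normalisation (adjusted p = 0.0858), median centring (0.09), only the 2 groups compared (0.117) and without EV replicate 1 (0.0637), HEA replicate 1 (0.0992) or HEA replicate 3 (0.0573). That of Gja1 in WT at 4 h was lost without EV replicate 3 (0.0843), WT replicate 3 (0.163) or the 3 farthest libraries (0.188), and with only the 2 groups compared 1 gene fell in WT. In RA, Panx1 alone passed at 8 h (2.78% of all genes) and at 4 h (5.31%), lower than EV at both times. The call of Panx1 at 8 h was lost without EV replicate 2 (adjusted p = 0.0874), EV replicate 3 (0.0608) or RA replicate 1 (0.127), and that at 4 h without any 1 of its 6 libraries (0.0506 to 0.163). Between 8 h and 4 h, 0 rose and 0 fell in EV or RA (0.0245% and 0.22% of all genes passed). Gja4 fell in WT (8.46%) and Gja4 and Gjc1 in HEA (3.33%). With only the 2 groups compared these 3 calls were lost, with adjusted p of 0.126 to 0.292, and those of Gja4 and Gjc1 in HEA were also lost without single libraries. In WT over RA 1 rose, Panx1, and 2 fell, Gja4 and Gjb5, at each time. Of all genes 41.8% passed in WT over RA at 8 h and 34.8% at 4 h. The call of Panx1 in WT over RA at 4 h was lost with only the 2 groups compared (limma adjusted p = 0.0588).

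Of 13 other K2P channel genes, Kcnk2 and Kcnk7 passed the filter. Kcnk2, which encodes TREK-1, a close relative of TREK-2, fell in WT and HEA. Of all genes 35.2% passed in WT and 47.7% in HEA against EV at 8 h, and 26.1% and 43.2% at 4 h. Kcnk2 averaged 2.11 ± 0.58 RPKM in WT at 8 h and 5.59 ± 0.45 RPKM in EV, a log2 fold change of -1.24 ± 0.22 (limma adjusted p = 0.000148). At 4 h it averaged 2.24 ± 0.71 RPKM in WT and 5.09 ± 0.54 RPKM in EV (-1.06 ± 0.22, limma adjusted p = 0.00117). In HEA it averaged 3.50 ± 0.63 RPKM at 8 h, a log2 fold change of -0.61 ± 0.22 against EV (limma adjusted p = 0.0238). That call was lost without EV at 8 h replicate 1 (adjusted p = 0.0625) or replicate 3 (0.072). It was also lost without HEA replicate 1 (0.0839) or replicate 3 (0.0742). In HEA at 4 h Kcnk2 had a log2 fold change of -0.65 against EV (limma adjusted p = 0.0187). The 4 h call was lost with only the 2 groups compared (0.0707), and without EV replicate 3 (0.0698) or HEA replicate 2 (0.142). Kcnk7 passed in no comparison of the fit without a block, though it did in WT over RA at 4 h with the replicate block, and the remaining 11 genes stayed at or under 0.571 RPKM in every library.

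Of 44 other genes of acid and bicarbonate transport described here, 43 were in the table and 23 passed the filter. Against EV at 8 h, 3 rose and 7 fell in HEA, and 6 rose and 4 fell in WT, near the 47.7% of all genes that passed in HEA and the 35.2% in WT. In RA 0 rose and Slc16a1 fell, 1 gene of 23, near the 2.78% of all genes that passed there. At 4 h 6 rose and 6 fell in HEA and 3 rose and 4 fell in WT, near the 43.2% of all genes in HEA and the 26.1% in WT. In RA at 4 h Slc16a1 alone passed and again fell, near the 5.31% of all genes that passed. The RA calls of Slc16a1, a lactate carrier gene, were each lost without any of 5 of the 6 libraries, at 8 h with adjusted p of 0.0533 to 0.106 and at 4 h with 0.0764 to 0.182. The chloride-bicarbonate exchanger genes Slc4a2 and Slc4a3 fell in both HEA and WT at 8 h, where Slc4a2 averaged 24.4 ± 0.67 RPKM in HEA, 28.9 ± 3.5 RPKM in WT and 38.8 ± 0.63 RPKM in EV at 8 h. The log2 fold change of Slc4a2 was -0.66 ± 0.11 in HEA (limma adjusted p = 6.36e-05) and -0.42 ± 0.11 in WT (limma adjusted p = 0.00514). Car12, a membrane carbonic anhydrase, rose in both, with 1.87 ± 0.28 RPKM in HEA, 3.44 ± 0.85 RPKM in WT and 0.313 ± 0.054 RPKM in EV at 8 h. Its log2 fold change was 1.54 ± 0.18 in HEA and 2.26 ± 0.18 in WT. With 0.313 RPKM in EV, Car12 lay under the filter there and entered the test through groups where it was higher. The filter thus favoured a call of a rise, so its rise over EV is a description, though the counts above include it. The sulfate carrier gene Slc26a2 rose in both as well. Over time, Car12 rose in WT and no other gene of the list passed in WT, HEA, RA or EV in the fit over all groups. Of all genes 8.46% passed over time in WT, 3.33% in HEA, 0.22% in RA and 0.0245% in EV. Other settings gave other calls in this list. Without the 3 farthest libraries 3 rose and 3 fell in WT over EV at 8 h, and 3 rose and 1 fell at 4 h. With only the 2 groups compared, 2 rose and 1 fell in WT and 5 rose and 2 fell in HEA over EV at 4 h. With quantile normalisation 7 rose and 4 fell in WT over EV at 8 h. Over time, in HEA 3 genes fell with quantile normalisation, 2 without the 3 farthest libraries and 1 with the replicate block. In WT 1 fell with quantile normalisation and 1 with median centring, and 2 rose with the block. The Car12 call over time was lost with a pseudocount of 0.1 (adjusted p = 0.0862), with quantile normalisation (0.0893), with only the 2 groups compared (0.235) and without any of 4 of the 6 WT libraries (0.0599 to 0.168).

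**Figure D4:**
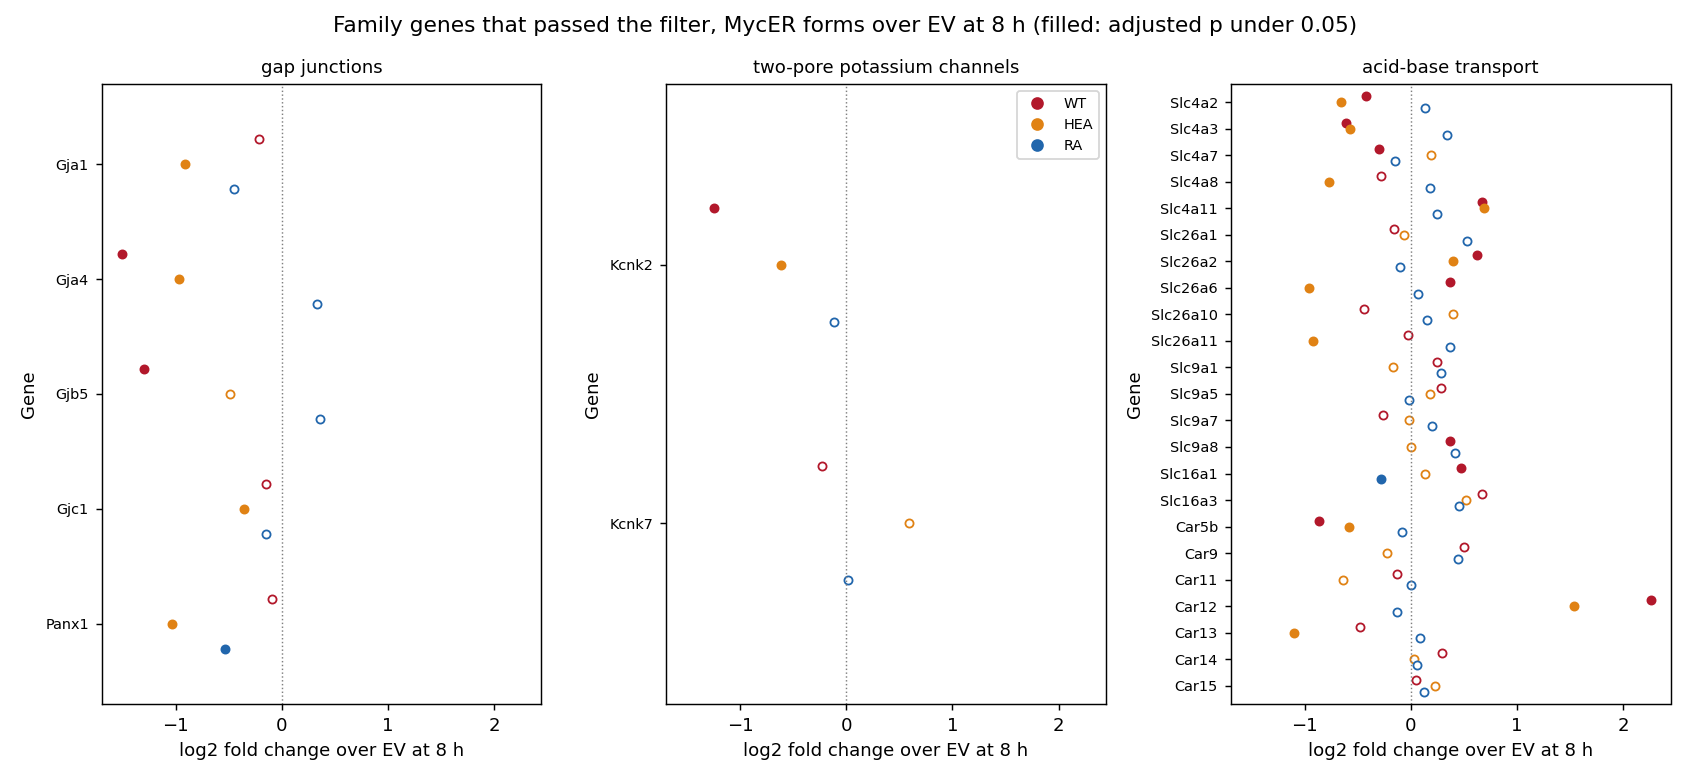
Log2 fold change over EV at 8 h (horizontal axis) of each family gene described here that passed the filter (vertical axis), for WT (red), HEA (orange) and RA (blue), with filled points where the adjusted p was under 0.05. No gap junction gene shown lies right of 0 in HEA or WT, and Kcnk2 lies at -1.24 in WT.

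The genes whose RPKM was most like that of each member across the 24 libraries were ranked by Pearson's r over 11182 genes. The libraries form 8 groups, so this r mostly follows the group means, and it is a description. For Gjb2 the first 3 were Nrg1 (r = 0.933), Loxl4 (0.923) and Vldlr (0.918), which encode a ligand of ErbB receptors, a lysyl oxidase of the matrix and a lipoprotein receptor. Vldlr averaged 4.72 ± 0.82 RPKM in WT at 8 h and 10.6 ± 0.97 RPKM at 4 h, with 16.2 ± 1.1 and 21.5 ± 3.6 RPKM in HEA and 9.90 ± 1.1 and 14.4 ± 1.1 RPKM in EV at the same times. For Kcnk10 they were Zfp704 (r = 0.9799), Acad9 (0.969) and Mycbp2 (0.966), a zinc finger protein, a mitochondrial protein needed to assemble respiratory complex I and a ubiquitin ligase first found as a Myc-binding protein. Zfp704 averaged 17.2 ± 0.96 RPKM in HEA, 11.4 ± 1.1 RPKM in WT, 7.34 ± 0.18 RPKM in RA and 6.60 ± 0.23 RPKM in EV at 8 h. Its order of vectors is that of Kcnk10, as its choice by r with Kcnk10 favours. For Slc4a4 they were Atrn (r = 0.938), Prkd1 (0.930) and Rspo2 (0.929), which encode attractin, a protein kinase and a secreted enhancer of Wnt signalling. Ranked over the 8 group means, the order changed. Nrg1, Loxl4 and Vldlr were then at ranks 3, 19 and 32 for Gjb2. Zfp704, Acad9 and Mycbp2 were at 4, 5 and 2 for Kcnk10. Atrn, Prkd1 and Rspo2 were at 10, 13 and 9 for Slc4a4. Among the members, r over the 24 libraries was 0.876 between Gjb2 and Slc4a4. It was 0.707 between Kcnk10 and Slc4a4 and 0.391 between Gjb2 and Kcnk10.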

How the data were processed

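The data are RNA-seq of total RNA made into stranded libraries, per the labels' protocols. The authors deposited RPKM for 21671 genes in 24 libraries, per the file headers, and a table of comparisons with EV that holds log2 fold changes, their standard errors, a statistic (score) and p-values for each gene, per the file headers. The submitters' processing notes name build mm9 and the tools DESeq2, featureCounts 1.4.5-p1, SAMtools, TopHat and TopHat2 2.0.8, with no role or order. The sources used here do not give the gene annotation, the strand setting or the handling of duplicate reads.

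Genes with at least 1 RPKM in at least 3 libraries, 12268 of them, were tested with limma 3.58.1 (trend, R 4.3.3) on log2(RPKM + 0.5). A gene under 1 RPKM in some groups entered through the groups where it was higher, which favours a call between them. A single fit held 8 group means and 16 residual degrees of freedom, with Benjamini-Hochberg adjustment within each comparison and 0.05 as the threshold. A fold on this scale understates the change of low genes. Depth came from the RPKM steps: 99.99% of 362673 values above 0 fell within 0.01 read of a whole number. Pairs of libraries of a group differed beyond sampling noise (chi-square per degree of freedom 1.43 to 17.7). The fit was tested on simulated data. Its noise was drawn independently for each gene and library, so it could not show how calls depend on single libraries. Other steps used Python 3.11.15.

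The members, lists and tests were chosen with earlier results of these data known. Named are the members, Esr1, listed family genes that passed and the 3 genes most like each member, passing over predicted genes. Some genes of the families are not reported here and stay out of the family counts and plot. The alternatives were other pseudocounts (0.1 and 1), no filter, quantile normalisation, median centring, only the groups compared, no trend, a replicate block, voom on recovered reads and leaving out each library. Leaving out the 3 farthest libraries was added after seeing the data.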

Additional observations from a re-analysis of the deposited data

How the results depend on the processing

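Of the 15 tests on the 3 genes, those between WT and RA kept direction and side of the threshold under all alternatives run. Over leaving out each library the log2 fold changes ran from -1.72 to -1.39 (Gjb2, 8 h), -0.73 to -0.51 (Gjb2, 4 h), 0.47 to 0.56 (Kcnk10, 8 h), 0.59 to 0.72 (Kcnk10, 4 h), -0.50 to -0.37 (Slc4a4, 8 h) and -0.50 to -0.40 (Slc4a4, 4 h). The calls from 4 h to 8 h were lost with only the groups compared, a setting with fewer libraries to estimate the spread. There the values of Gjb2 (-1.64), Kcnk10 (-0.27) and Slc4a4 (-0.59) in WT and of Slc4a4 in RA (-0.61) no longer passed. The cause of this loss was not tested. Leaving out single libraries, Kcnk10 in WT ran from -0.31 to -0.24 and Slc4a4 in RA from -0.65 to -0.56, and each lost its call without 5 of 6 libraries. Without the 3 farthest libraries Kcnk10 in WT (-0.27) did not pass. Gjb2 in RA passed with quantile normalisation (-0.74), with voom (-0.71) and without the 3 farthest libraries (-0.71), and the cause was not tested. The difference of the Slc4a4 time change between WT and RA, near 0, ran from -0.047 to 0.083 and was -0.026 without the 3 farthest libraries. Same-numbered libraries of different groups had a median r of 0.023 between their deviations (84 pairs, from -0.598 to 0.407). The numbers were therefore not taken as pairs. Those pairs span all vectors, and pairing of the 2 times within a vector was not tested apart. With the replicate block Gjb2 in WT stayed at -1.64 (adjusted p = 1.37e-05) and no call of the 15 changed.

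Counts of all genes passing moved more. From 4 h to 8 h they were 1038 in WT, 409 in HEA, 27 in RA and 3 in EV, against 0, 2, 0 and 0 with only the groups compared. In HEA quantile normalisation gave 647 and leaving out the 3 farthest libraries 938, and in RA the block gave 17 and the 3 farthest libraries left out 87. In EV the count was 18 without the trend, 15 with voom, 6 with quantile normalisation, 5 with median centring, 1 with a pseudocount of 1 and 0 without the 3 farthest libraries. Without a single library these counts reached down to 290 in WT (8 h replicate 1) and 105 in HEA (4 h replicate 2), up to 618 in HEA (4 h replicate 3), and to 0 in RA and EV. RA against EV gave 652 at 4 h and 341 at 8 h, against 3 and 1310 with only the groups compared, 335 and 805 without the 3 farthest libraries, 158 without EV at 4 h replicate 2, 59 without RA at 8 h replicate 1 and 522 at 8 h with voom. At 4 h WT gave 3196 against EV and 4272 against RA, or 1112 and 2793 with only the groups compared, and 2040 against EV without WT at 4 h replicate 3. The 8 genes of the WT and RA time difference were 0 to 41 over the alternatives. Each of the 3 genes had at least 164 reads in every library, and whether depth limited their calls was not tested.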
